A study of Mus musculus with 14 samples.

Results

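Clic6 and the genes that could accompany it were followed in granule neuron progenitors (GNPs) of mice with intact Chd7 (WT) or with loss of 1 copy (Het) or of both copies (Hom) in the granule cell lineage. The 10 genes are Clic6, its paralogs Clic1, Clic4 and Clic5, and the choroid plexus genes Ttr, Folr1, Kl, Aqp1, Enpp2 and Prlr, out of 41381 genes in the table. Clic6 was chosen on its difference between Hom and WT in these same libraries, and the other 9 genes were selected on family or on known expression in the choroid plexus. The values of Clic6 between the genotypes are therefore given as a description, with no test. The other 9 genes and the gene lists below were also chosen with earlier results of these data known. Their p-values do not take this into account. All 10 genes were found in the table, and 7 of them had a level of at least 1 TPM (transcripts per 1000000, a share of all transcripts that is corrected for gene length) in at least 4 libraries.

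GNPs divide in the outer layer of the young cerebellum before they become granule neurons. The protein made from Chd7 remodels chromatin with energy from ATP. The 14 libraries were made from GNPs of cerebella at postnatal day 7, enriched on a percoll gradient. The 5 WT libraries came from mice with floxed Chd7 that are Atoh1-Cre negative (WT 1 to 3 are labelled only Chd7 wild type, and Het 1 and 2 and Hom 1 and 2 only het or hom mutant), the 5 Het libraries from Atoh1-Cre::Chd7 f/+ mice and the 4 Hom libraries from Atoh1-Cre::Chd7 f/f mice. Strain was given as C56Bl6/J for WT 1 to 3, Het 1 and 2 and Hom 1 and 2, and as C57BL/6 for the others. Atoh1-Cre acts in the granule cell lineage and recombines less in the posterior lobe, so cells with intact Chd7 remain in the mutant cerebella. The libraries were sequenced in 2 batches, with WT 1 to 3, Het 1 to 3 and Hom 1 and 2 in batch 1 and the other 6 libraries in batch 2. No source used here says that each library is a separate animal, so p-values measure the spread between these libraries.

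The choroid plexus is the epithelial tissue that secretes cerebrospinal fluid, and a part of it lies in the fourth ventricle beside the cerebellum. Its epithelium is known for very high levels of transthyretin (Ttr), which carries thyroid hormone and the retinol-binding protein. Clic6 is a member of the chloride intracellular channel family, proteins that occur in soluble and membrane-bound forms, and it is also known as a gene of the choroid plexus epithelium.

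The 5 mouse Clic genes examined encode a common chloride intracellular channel fold. Clic6 encodes 596 residues and its paralogs encode 237 (Clic3) to 253 (Clic4) residues, because Clic6 has a long additional N-terminal part. Over the aligned part, identity to Clic6 was 75.2% of residues for Clic4, 73.0% for Clic5, 62.6% for Clic1 and 51.5% for Clic3. No stretch of 50 bases, the read length of the study, was common to an annotated transcript of Clic6 and of any paralog, and the closest such stretch had 6 mismatches (in Clic1 and in Clic4). The sequences below show the same 60 bases of exon 5 of 6 in each gene, as annotated by GENCODE on GRCm38. Of the coding stretches of this length that align without a gap inside a single exon in all 5 genes, it has the most bases equal to Clic6. It is therefore more alike than the genes at large: over the whole aligned part, 57.3% (Clic3) to 69.8% (Clic4) of bases were identical to Clic6. Capitals mark the bases that differ from Clic6.
Clic6: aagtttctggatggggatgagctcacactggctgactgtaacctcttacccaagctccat
Clic1: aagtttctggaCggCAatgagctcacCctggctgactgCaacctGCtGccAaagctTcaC
Clic4: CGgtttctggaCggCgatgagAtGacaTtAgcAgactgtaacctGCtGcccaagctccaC
Clic5: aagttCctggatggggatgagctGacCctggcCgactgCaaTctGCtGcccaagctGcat
Clic3: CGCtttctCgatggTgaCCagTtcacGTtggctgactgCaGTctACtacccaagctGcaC
The stretch lies at chr16:92530869-92530928 (plus strand) in Clic6, at chr17:35055340-35055399 (plus) in Clic1, at chr4:135218517-135218576 (minus) in Clic4, at chr17:44270604-44270663 (plus) in Clic5 and at chr2:25458411-25458470 (plus) in Clic3. It differs from Clic6 at 11 bases in Clic1, 13 in Clic4, 10 in Clic5 and 17 in Clic3, which is the most distant of the 5 here as in the protein alignment.

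The libraries were first checked against their labels. Markers of the granule cell lineage were high throughout, with 8 of 8 genes above 1 TPM in every library and Pax6, a transcription factor of these cells, between 551 and 911 TPM. Chd7 lay between 121 and 272 TPM in the libraries labelled WT, between 137 and 181 TPM in those labelled Het and between 126 and 185 TPM in those labelled Hom. The 3 ranges overlap. The mean of the libraries labelled Hom was 1.33 times that of WT in batch 1 and 0.58 times in batch 2. A TPM value for the whole gene does not show whether its floxed part is lost, so these levels cannot decide on the labels. The paper reports less Chd7 transcript in Het and Hom GNPs by quantitative RT-PCR, and loss of the protein in Hom granule cells by staining. The genotypes below are those of the labels.

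Clic6 (ENSMUSG00000022949; GRCm38 chromosome 16, 92485736 to 92541243, plus strand) separated the 3 genotypes completely. Its level was 2.82, 1.66, 1.61, 1.86 and 1.45 TPM in WT 1 to 5. Het 1 to 5 had 3.45, 3.83, 4.18, 3.53 and 5.0 TPM. In Hom 1 to 4 it was 8.96, 9.7, 9.61 and 12 TPM. Every Het library was thus above every WT library, and every Hom library above every Het library.

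The mean level of Clic6 was 1.88 ± 0.545 TPM in WT (SD, n = 5), 4.0 ± 0.629 TPM in Het (SD, n = 5) and 10.1 ± 1.33 TPM in Hom (SD, n = 4). The Hom mean was 5.36 times and the Het mean 2.13 times the WT mean. The ratio of Hom to WT was 4.6 in batch 1 and 6.53 in batch 2, and that of Het to WT was 1.88 and 2.58. On the scale of log2(TPM + 1), which understates the change of a gene at such low levels, the difference from WT was 1.95 in Hom (SE 0.156) and 0.81 in Het (SE 0.146). An order of WT under Het under Hom with no overlap was found in 10 of 17325 tested genes, or 0.0577%, from which nothing is read about Clic6, since it was chosen for its difference.

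**Figure D1:**
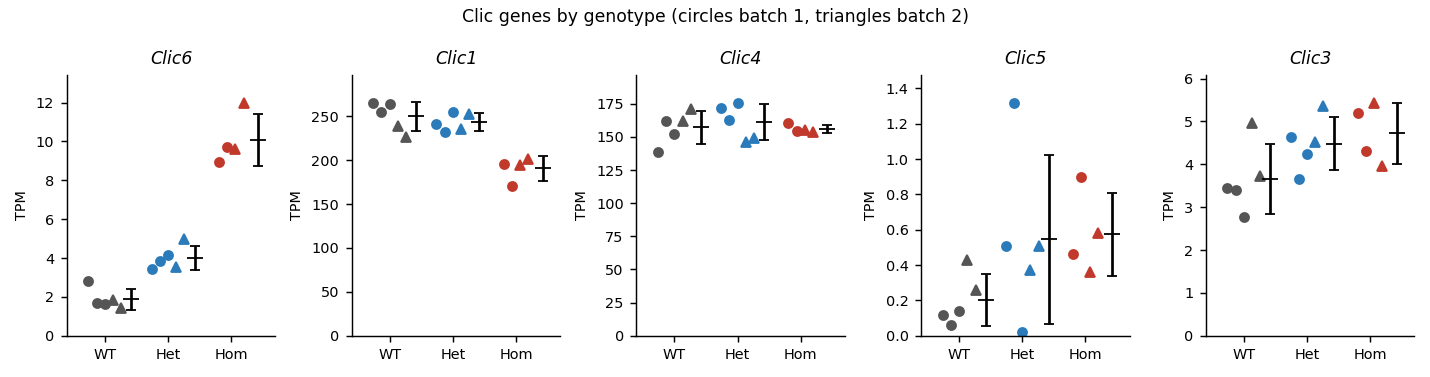
Level in TPM of Clic6, Clic1, Clic4, Clic5 and Clic3 in each library by genotype, with circles for batch 1, triangles for batch 2 and the mean and SD beside the points. Clic6 lies at 1.45 to 2.82 TPM in WT, 3.45 to 5.0 TPM in Het and 8.96 to 12 TPM in Hom, Clic1 is lower in the 4 Hom libraries than in any other library, and the points of Clic4, Clic5 and Clic3 overlap between genotypes.

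Among the paralogs, Clic1 moved in the opposite direction. Clic1 (GRCm38 chromosome 17, 35049966 to 35058749), a widely expressed member of the family, had levels of 266, 255, 264, 239 and 227 TPM in WT 1 to 5. The 5 Het libraries had 241, 232, 255, 236 and 252 TPM, and Hom 1 to 4 had 196, 170, 194 and 202 TPM. The 4 Hom libraries were below all WT and all Het libraries, while the Het and WT libraries overlapped.

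Clic1 fell in Hom against WT by 0.39 on the log2 scale (SE 0.0641, limma adjusted p = 0.00483 over all tested genes), and the Hom mean was 0.762 times the WT mean. At an adjusted p under 0.05, 1.41% of tested genes were called lower in Hom and 1.27% higher, and 1.96% had all Hom libraries below all WT libraries. In Het against WT the difference of Clic1 was -0.037 (SE 0.0603, adjusted p = 0.954), and against Het it was lower in Hom by a log2 difference of -0.35 (adjusted p = 0.0363). The Clic1 difference was -0.51 in batch 1 alone (adjusted p = 0.028) and -0.23 in batch 2 alone (adjusted p = 0.252), where the call was lost, and the difference between the batches had an adjusted p of 0.223.

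Clic4 (chromosome 4, 135213969 to 135272814, minus strand), a paralog found in many tissues, did not separate the genotypes. It was between 138 and 171 TPM in WT (median 162), between 146 and 176 TPM in Het (median 163) and between 154 and 161 TPM in Hom (median 155). The difference in Hom against WT was -0.0036 (SE 0.0707, adjusted p = 0.99), beside 0.036 for Het (SE 0.0665, adjusted p = 0.96). Clic3 (chromosome 2), which is no choroid plexus gene and was added to complete the family, was between 2.77 and 4.96 TPM in WT and between 3.96 and 5.44 TPM in Hom, a difference of 0.29 (SE 0.139, adjusted p = 0.359). Clic3 overlaps Paxx on the other strand, and RSEM at its default parameters does not use strand, so reads of the 2 genes may not be told apart.

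Clic5 (chromosome 17, 44188584 to 44280172), which links membranes to the actin cytoskeleton, was near the lower end of what the table resolves. Its level was 0.12, 0.06, 0.14, 0.43 and 0.26 TPM in WT 1 to 5. Values in Het 1 to 5 were 0.51, 1.32, 0.02, 0.37 and 0.51 TPM, and those in Hom 1 to 4 were 0.46, 0.9, 0.36 and 0.58 TPM. The groups overlap, and only Het 2 exceeded 1 TPM.

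The difference of Clic5 in Hom against WT was 0.38 on the log2 scale (two-sided exact permutation of the labels within batch, unadjusted p = 0.0333, where 60 arrangements allow 0.0167 at the least). In the limma fit with all genes above 0 TPM in at least 4 libraries its adjusted p was 0.447. In Het against WT the difference was 0.32 (exact permutation p = 0.2). Without Hom 2 the Hom difference was 0.244 (exact permutation p = 0.0833), and the p also rose above 0.05 without each of WT 1, 2, 3 and 5, Hom 1 and Hom 4.

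Endothelial markers had a similar order over the libraries as Clic5. The summed level of 12 endothelial genes was 50.8 to 330.2 TPM in WT, 36.4 to 703.3 TPM in Het and 172.6 to 520.5 TPM in Hom, all 12 were tested, none was called in limma in Hom (9 had an unadjusted p under 0.05, beside 14.9% of all tested genes), and their median difference in Hom was 1.5 against 0.0243 over all tested genes. The 4 libraries with the lowest Clic5 (Het 3, WT 2, WT 1 and WT 3) are the 4 with the lowest endothelial sums, and Het 2 and Hom 2, highest in Clic5, are highest in that sum. The part of these cells in the Clic5 difference was not tested. In bulk RNA, fewer cells of a type and less RNA per cell cannot be told apart.

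**Figure D2:**
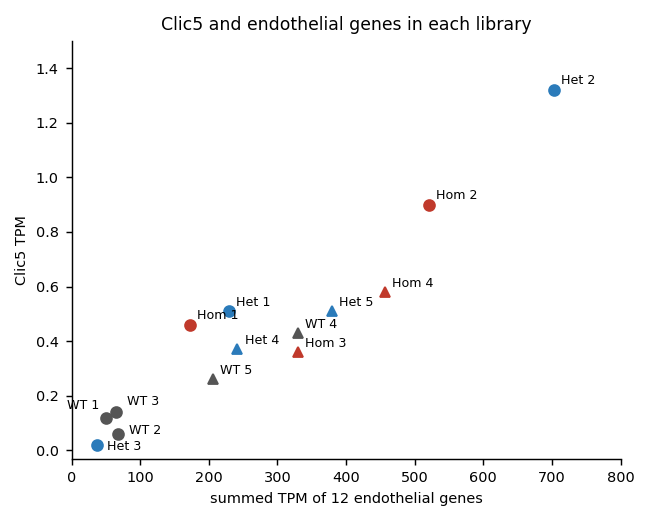
Clic5 level in TPM against the summed TPM of 12 endothelial genes in each of the 14 libraries, coloured by genotype (WT grey, Het blue, Hom red), with circles for batch 1 and triangles for batch 2. Het 3, WT 1, WT 2 and WT 3 lie at the lower left, with endothelial sums of 36.4 to 68.2 TPM, and Het 2 lies at the upper right, with 703.3 TPM.

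Clic6 was not ordered in the same way. Het 3 had the lowest endothelial sum of all libraries (36.4 TPM) and 4.18 TPM of Clic6, above all WT libraries, and WT 4, with an endothelial sum of 330.2 TPM, had 1.86 TPM. With the mean endothelial level as a covariate, added after the data were seen, the Clic6 difference was 1.99 in Hom and 0.835 in Het. In the same fit the Clic1 difference was -0.311 (adjusted p = 0.0234). Of the genes described below, Stra6 kept its call (0.976, adjusted p = 0.0104, beside 0.892 without the covariate). Otx2 (0.641, adjusted p = 0.0689), Rbp4 (0.803, adjusted p = 0.0619) and Kcne1 (0.7, adjusted p = 0.139) lost their call. Without the covariate the differences of these 3 were 0.662, 0.771 and 0.788, and their calls were also lost in other alternatives. The part of endothelial cells in the level of Clic6 and of these genes was not tested.

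The summed level of the 5 Clic genes was dominated by Clic1 and Clic4. Clic6 held between 0.36% and 0.687% of this sum in WT, between 0.819% and 1.21% in Het and between 2.41% and 3.23% in Hom. The share of Clic1 was 56.2% to 64.7% in WT and 50.1% to 54.2% in Hom. The sum itself was 402.9 to 422.3 TPM in WT and 339.4 to 371.9 TPM in Hom, so the higher Clic6 was accompanied by a lower total of the family.

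The question of whether Clic6 was accompanied by choroid plexus genes was addressed first with Ttr (ENSMUSG00000061808, chromosome 18). Its level was 488, 0.42, 36.2, 1.71 and 9.44 TPM in WT 1 to 5. Het 1 to 5 had 13.35, 1.02, 0.22, 2.5 and 129 TPM, and in Hom 1 to 4 it was 3.87, 2.46, 8.93 and 23.65 TPM. The groups overlap, and WT 1 and Het 5 stand far above the other libraries of their genotype. Across the 14 libraries Ttr ranged from 0.22 to 488 TPM, while Clic6 ranged from 1.45 to 12 TPM.

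The difference of Ttr in Hom against WT was -0.96 on the log2 scale (SE 1.64, limma adjusted p = 0.852), and that in Het was -1.1 (SE 1.54, adjusted p = 0.945). Neither exceeded the spread between libraries, and the sign rests on WT 1: without WT 1 the difference in Hom was 0.366 (adjusted p = 0.941). With 2.46 TPM of Ttr Hom 2 had 9.7 TPM of Clic6, and with 36.2 TPM of Ttr WT 3 had 1.61 TPM of Clic6.

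Within each genotype the library with the most Ttr was also the library with the most Clic6. These were WT 1 (488 TPM of Ttr, 2.82 TPM of Clic6), Het 5 (129 and 5.0 TPM) and Hom 4 (23.65 and 12 TPM). With these 3 libraries left out, an alternative added after the data were seen, the difference of Clic6 from WT was 1.98 in Hom and 0.84 in Het. The part of choroid plexus RNA in the level of these 3 libraries was not tested.

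**Figure D3:**
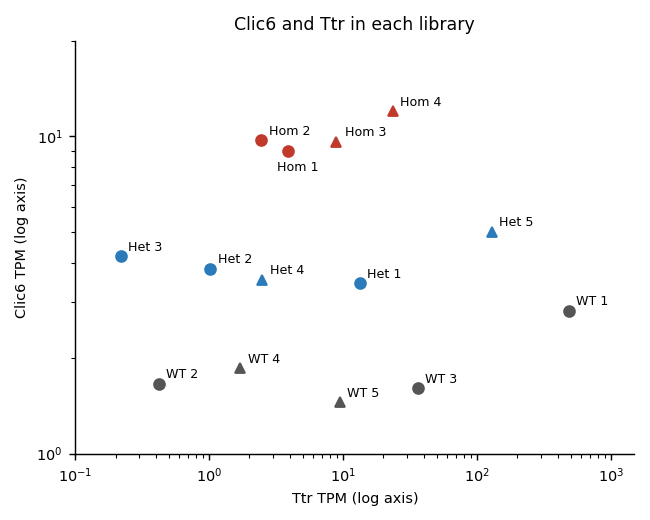
Clic6 against Ttr in each of the 14 libraries, both in TPM on log axes, coloured by genotype (WT grey, Het blue, Hom red), with circles for batch 1 and triangles for batch 2. The genotypes form 3 separate bands of Clic6 while Ttr runs from 0.22 TPM (Het 3) to 488 TPM (WT 1), and the highest Clic6 value of each band is at its highest Ttr value.

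None of the other 5 choroid plexus genes of the set separated Hom or Het from WT. Folr1 (chromosome 7, 101858331 to 101870788, minus strand), the folate receptor that carries folate across this epithelium, was at 8.98, 2.12, 0.6, 2.32 and 1.41 TPM in WT 1 to 5. The 5 Het libraries had 2.79, 0.79, 1.36, 2.11 and 4.98 TPM, and Hom 1 to 4 had 2.93, 1.07, 1.45 and 2.54 TPM. WT 1 and Het 5, the libraries with the most Ttr, were also highest in Folr1, and the groups overlap.

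The difference of Folr1 in Hom against WT was -0.21 (SE 0.471, adjusted p = 0.893) and that in Het was -0.084 (SE 0.443, adjusted p = 0.987). Without WT 1 it was 0.205 in Hom and 0.355 in Het. Folr1 overlaps Anapc15, a gene of up to 85.3 TPM on the other strand, so reads of the 2 genes may not be told apart.

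Aqp1 (chromosome 6, 55336432 to 55348555), the water channel of the apical membrane of the choroid epithelium, was at 2.39, 0.96, 1.69, 0.82 and 0.74 TPM in WT 1 to 5. Values in Het 1 to 5 were 0.44, 0.7, 0.36, 0.66 and 2.1 TPM, and Hom 1 to 4 had 0.57, 1.06, 0.85 and 2.09 TPM. The highest libraries of the 3 genotypes were again WT 1, Het 5 and Hom 4. The difference was -0.13 in Hom (SE 0.291, adjusted p = 0.895), beside -0.34 for Het (SE 0.274, adjusted p = 0.885), within the spread between libraries.

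Kl (chromosome 5, 150952607 to 150993817), which encodes klotho, the co-receptor of the hormone FGF23, was at 1.48, 0.71, 0.81, 0.49 and 0.68 TPM in WT 1 to 5. Het 1 to 5 had 0.86, 0.46, 0.75, 0.57 and 0.8 TPM, and Hom 1 to 4 had 0.59, 0.36, 0.51 and 0.47 TPM. Hom 1 and Hom 3 lay within the WT range and Hom 2 and Hom 4 below it, so the groups overlap. The difference of Kl in Hom against WT was -0.271 (exact permutation p = 0.0833) and that in Het was -0.103 (exact permutation p = 0.533). Without WT 4 the p for Hom was 0.0333 (exact permutation), and the Hom difference stayed below 0 in every alternative run.

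Prlr (chromosome 15, 10177238 to 10349180), the prolactin receptor, was below 0.25 TPM in every library. It lay between 0.09 and 0.24 TPM in WT, between 0.09 and 0.14 TPM in Het and between 0.17 and 0.22 TPM in Hom. The Hom libraries were above the Het libraries, as in 1.11% of all tested genes, and both overlapped WT. The difference from WT was 0.038 in Hom (exact permutation p = 0.35) and -0.0446 in Het (exact permutation p = 0.283).

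Enpp2 (chromosome 15, 54838901 to 54952892, minus strand) encodes autotaxin, a secreted enzyme that makes lysophosphatidic acid. It is abundant in the choroid plexus and is known in cells of the oligodendrocyte lineage as well. It was at 77.0, 59.55, 50.2, 56.9 and 35.7 TPM in WT 1 to 5. The 5 Het libraries had 37.7, 79.5, 33.4, 62.9 and 68.6 TPM, and Hom 1 to 4 had 32.0, 74.4, 53.4 and 74.1 TPM. The groups overlap, and the level did not follow Ttr, since Het 2 had the most Enpp2 and 1.02 TPM of Ttr.

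The difference of Enpp2 was 0.02 in Hom (SE 0.308, adjusted p = 0.988), beside -0.022 for Het (SE 0.29, adjusted p = 0.994). Het 2 also had the highest summed level of 12 oligodendroglial genes, 1780.5 TPM, and Hom 1 the lowest in both, with 650.3 TPM of that sum. That sum was 835.4 to 1570.1 TPM in WT, 698.0 to 1780.5 TPM in Het and 650.3 to 1612.3 TPM in Hom, and 11 of its 12 genes were above 1 TPM in each library. The part of these cells in Enpp2 was not tested.

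**Figure D4:**
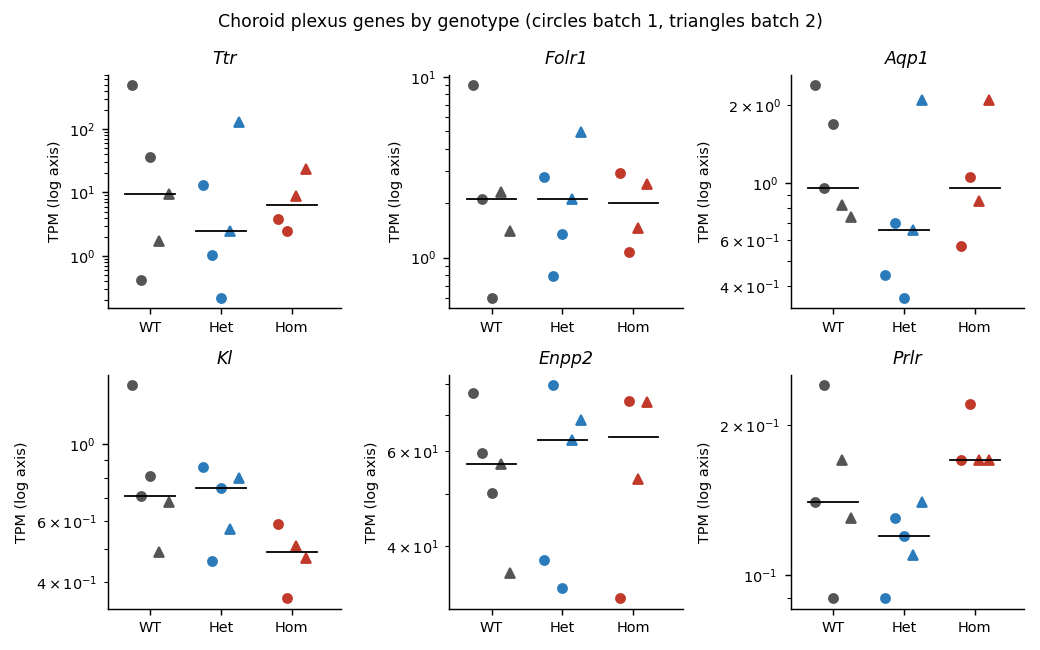
Level in TPM, on log axes, of Ttr, Folr1, Aqp1, Kl, Enpp2 and Prlr in each library by genotype, with circles for batch 1, triangles for batch 2 and a line at each median. In 5 of the 6 genes all genotypes overlap, in Prlr every Hom library is above every Het library while both overlap WT, and WT 1 is the highest library of all for Ttr, Folr1, Aqp1 and Kl.

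Beyond the 6 genes, a wider list of 33 choroid plexus genes was examined, Clic6 included. Of these, 19 were tested, 9 were under 1 TPM in every library, 4 were listed at 0 in some libraries and none was at 0 in all. Without Clic6, 1 of 18 tested genes was called higher in Hom and none lower, beside 1.27% and 1.41% of all tested genes, and their median difference was 0.0323 against 0.0243 for all tested genes. In Het, limma called none of the 18 genes and none had an unadjusted p under 0.05, with a median difference of -0.117, beside 0.00577% of all tested genes called, which is 1 gene. The summed level of the list without Clic6 was 212.4 to 785.4 TPM in WT, 197.4 to 429.9 TPM in Het and 261.9 to 378.9 TPM in Hom. The overlap with Hom rests on WT 1 (785.4 TPM) and Het 5 (429.9 TPM). The other WT libraries (212.4 to 256.1 TPM) and the other Het libraries (197.4 to 235.3 TPM) were below every Hom library. Much of the sum came from Otx2, Enpp2 and Rdh5, in Hom 1 with 120.54, 32.02 and 58.55 of 261.9 TPM. Otx2 and Enpp2 are also known in other cells, so the sum does not measure this epithelium alone.

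The gene called was Otx2 (chromosome 14, 48657677 to 48673819, minus strand), a homeobox factor of the choroid plexus that granule progenitors of the posterior cerebellum also express. It was at 80.4, 74.9, 72.6, 68.8 and 106 TPM in WT 1 to 5. Values in Het 1 to 5 were 74.6, 80.7, 77.0, 61.5 and 104 TPM, and Hom 1 to 4 had 120.5, 117, 131 and 144 TPM. The 4 Hom libraries were above all others, as in 2.91% of tested genes for Hom against WT, whereas Het and WT libraries overlapped.

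Otx2 rose in Hom by 0.66 on the log2 scale (SE 0.138, limma adjusted p = 0.0206), and its difference in Het was -0.02 (SE 0.13, adjusted p = 0.989). Without Hom 1 the adjusted p was 0.0622, without Hom 4 it was 0.0702, without WT 3 it was 0.0539 and without WT 4 it was 0.0526. Otx2 was at 0.639 in batch 1 alone (adjusted p = 0.00976) and at 0.678 in batch 2 alone (adjusted p = 0.294). The pattern thus differed from that of Clic6, which was higher in Het in every library. At 61.5 to 144 TPM Otx2 was also more abundant than Ttr in all libraries except WT 1 and Het 5.

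The remaining 17 tested genes of the list had differences in Hom between -0.96 (Ttr) and 0.43 (Wfdc2, a secreted epithelial protein), with the smallest adjusted p, 0.476, for Cldn3, a tight junction protein. Among the genes most restricted to this epithelium, Kcnj13, a potassium channel of its apical membrane, was 0.93 to 3.26 TPM in WT and 0.56 to 2.23 TPM in Hom, a difference of -0.36 (SE 0.333, adjusted p = 0.674). Cldn2, a tight junction protein, was 0.77 to 1.7 TPM in WT and 0.59 to 1.72 TPM in Hom, a difference of -0.028 (SE 0.21, adjusted p = 0.973). Slc4a5, a bicarbonate transporter, and Tmem72 were below 1 TPM in every library, and Tmem72 was listed at 0 in 7 of them. Their differences in Hom were -0.166 (exact permutation p = 0.367) and -0.125 (exact permutation p = 0.217).

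The genes of the list did not all peak in the same library. WT 1 held the highest level of 12 of the 33 genes, Ttr, Folr1, Kl, Aqp1 and Kcnj13 among them. Some of the 12, such as Tmem72 and F5, were under 1 TPM in every library. Hom 4 held the highest level of 10, Otx2, Cldn2 and Clic6, the gene chosen for its difference, among them. How many of all tested genes peak in WT 1 or Hom 4 was not counted, so nothing is read from these counts about the list. In Hom 4 Ttr was 23.65 TPM, under that of WT 3.

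**Figure D5:**
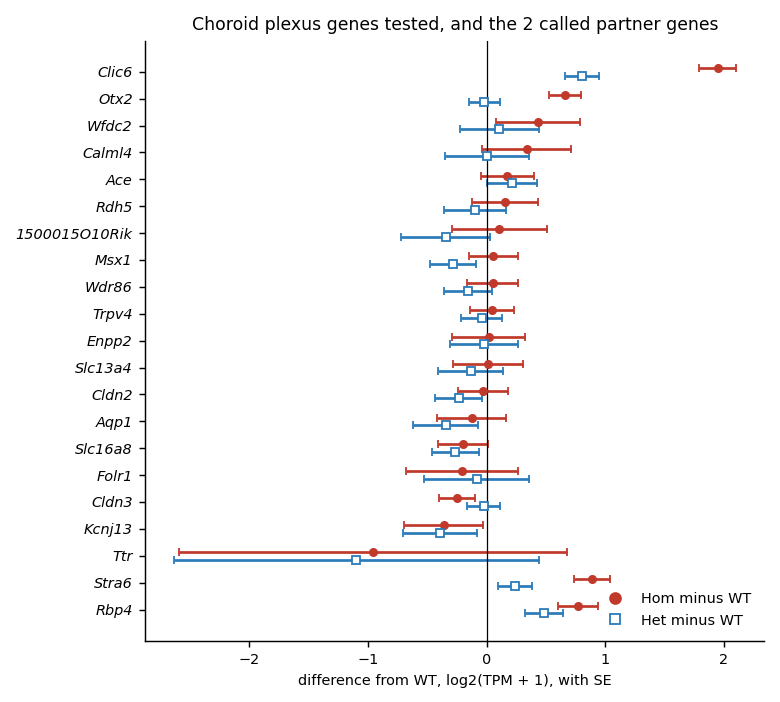
Difference from WT on the log2(TPM + 1) scale for the 19 tested choroid plexus genes and for the partner genes Stra6 and Rbp4, with filled circles for Hom, open squares for Het and bars for the SE. Clic6 (1.95 in Hom) and Otx2 (0.66) lie to the right of the other choroid plexus genes, which scatter around 0, and Ttr has by far the widest bars.

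Partners of these proteins were examined as a group of 25 genes, which holds the ERM proteins that bind Clic5, dopamine receptors linked to Clic6, retinol carriers, and the receptors or signal mediators that act with klotho, prolactin, autotaxin and folate. Of the 19 tested, 2 were called higher in Hom and none lower (1.27% and 1.41% of all genes), and 9 had an unadjusted p under 0.05, beside 14.9% of all tested genes. In Het limma called none, and 1 had an unadjusted p under 0.05, beside 6.08% of all tested genes. The called genes act together with Ttr in retinol transport.

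Stra6 (chromosome 9, 58063788 to 58153996), the membrane receptor that takes up retinol from its carrier, was at 8.77, 9.96, 10.7, 9.34 and 11.07 TPM in WT 1 to 5. Het 1 to 5 had 11.46, 10.1, 11.37, 10.68 and 16.98 TPM, and Hom 1 to 4 had 17.87, 14.34, 20.88 and 27.92 TPM. All Hom libraries were above all WT libraries, as in 2.91% of tested genes. Stra6 rose in Hom by 0.89 (SE 0.151, limma adjusted p = 0.00563), and its difference in Het was 0.24 (SE 0.142, adjusted p = 0.842). The Stra6 call was lost in each batch alone (0.658, adjusted p = 0.0941 in batch 1 and 1.17, adjusted p = 0.168 in batch 2). It overlaps Ccdc33, a gene of up to 5.57 TPM on the other strand.

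Rbp4 (chromosome 19, 38116629 to 38125281, minus strand), the retinol carrier itself, was at 5.12, 5.07, 4.95, 5.36 and 5.15 TPM in WT 1 to 5. The 5 Het libraries had 6.71, 7.35, 7.01, 6.8 and 10.48 TPM, and Hom 1 to 4 had 10.38, 6.71, 8.22 and 14.64 TPM. Het and Hom libraries were all above the WT libraries and overlapped each other. For Het above WT without overlap the share over all tested genes was 0.462%, and for Hom above WT it was 2.91%.

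Rbp4 rose in Hom by 0.77 (SE 0.171, limma adjusted p = 0.029), and its difference in Het was 0.48 (SE 0.161, adjusted p = 0.582). The Hom call was lost without Hom 1 (0.69, adjusted p = 0.112), without Hom 4 (0.612, adjusted p = 0.0816), without each WT library in turn (adjusted p between 0.0503 and 0.0696), in batch 1 alone (0.632, adjusted p = 0.18), in batch 2 alone (0.941, adjusted p = 0.231) and with the replicate block (0.906, adjusted p = 0.0738). Het 5 and Hom 4, the highest libraries of their genotype in Ttr, were also the highest in Stra6 and Rbp4. With WT 1, Het 5 and Hom 4 left out, Stra6 was at 0.732 (adjusted p = 0.029), Rbp4 at 0.605 (adjusted p = 0.108) and Otx2 at 0.627 (adjusted p = 0.101).

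The neighbours of Clic6 on chromosome 16 were examined next. Of 8 protein-coding genes that start within 500 kb of the Clic6 start, 6 were tested. Rcan1, a calcineurin inhibitor that starts 14.9 kb away, was 23.1 to 28.2 TPM in WT and 23.9 to 29.8 TPM in Hom, a difference of 0.074 (SE 0.0773, adjusted p = 0.721). Runx1, on the other side, differed by 0.152 (adjusted p = 0.832), Smim11 by -0.00077 (adjusted p = 0.998), Mrps6 by 0.323 (adjusted p = 0.394) and Slc5a3 by 0.0919 (adjusted p = 0.861).

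Kcne1, a potassium channel subunit whose start lies 126.3 kb from that of Clic6, was the exception. It was at 2.8, 2.46, 3.1, 2.41 and 3.49 TPM in WT 1 to 5. Values in Het 1 to 5 were 4.52, 3.68, 3.1, 3.29 and 6.24 TPM, and Hom 1 to 4 had 6.62, 5.84, 3.86 and 6.63 TPM. Kcne1 rose in Hom by 0.79 (SE 0.194, limma adjusted p = 0.0496) and all Hom libraries were above all WT libraries. Over all tested genes, 1.27% were called higher in Hom and 2.91% had all Hom above all WT libraries. The call was at the threshold and was lost without 12 of the 14 libraries in turn (adjusted p up to 0.153). Kcne2, a subunit expressed in the choroid plexus whose start lies 193.3 kb away, was at 1.88 TPM in WT 1 and 0.08 to 0.65 TPM in the others, and Fam243 was at 0.05 TPM or below.

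The 5 genes whose level followed that of Clic6 most closely over the 14 libraries were Wnt4, Tmem132e, Fgfr4, Loxl1 and Slit1. Their Pearson correlations with Clic6, in log2(TPM + 1) after subtraction of each batch mean, were 0.963, 0.96, 0.955, 0.954 and 0.952, and they share the libraries and the genotype order with Clic6. Wnt4, a secreted Wnt ligand, was 1.44 to 2.43 TPM in WT, 2.51 to 3.12 TPM in Het and 3.79 to 5.72 TPM in Hom. Slit1, a secreted ligand of Robo receptors, was 0.79 to 1.55 TPM in WT, 1.19 to 8.26 TPM in Het and 22.3 to 33.3 TPM in Hom. The correlation runs over the genotypes, so it partly follows the difference for which Clic6 was chosen. None of the 5 is in the choroid plexus list, but only 18 other genes of that list are among the 17324 ranked, so nothing is read from this. The same correlation was -0.00439 for Ttr, 0.0348 for Folr1, 0.0599 for Aqp1, 0.142 for Enpp2 and -0.773 for Clic1, and it was 0.88 for Stra6, 0.84 for Rbp4 and 0.765 for Otx2.

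Markers of the other tissues that could be carried into the preparation were counted as well. In Hom, limma called none of 10 ependymal, 12 meningeal, 11 oligodendroglial and 5 red blood cell genes tested, of which 1, 1, 2 and 4 had an unadjusted p under 0.05, beside 14.9% of all tested genes. Summed levels of the red blood cell genes were 296.3 to 715.0 TPM in WT, 141.0 to 364.5 TPM in Het and 188.1 to 350.9 TPM in Hom. Those of the ependymal genes, which line the ventricle beside the choroid plexus, were 53.9 to 126.9 TPM in WT and 54.7 to 98.8 TPM in Hom. Of 8 granule lineage genes, Neurod1, a differentiation factor, fell in Hom by 0.55 (SE 0.105, limma adjusted p = 0.0116), from 679 to 1032 TPM in WT to 501 to 596 TPM in Hom. Over all tested genes, 1.41% were called lower in Hom. The Neurod1 call was lost in batch 1 alone (-0.309, adjusted p = 0.173), in batch 2 alone (-0.862, adjusted p = 0.0507), with the replicate block (-0.471, adjusted p = 0.123) and in a fit of Hom and WT alone (-0.56, adjusted p = 0.0504).

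Differences between the batches were tested for each member as an interaction. None of the 7 tested members was called, beside 0.0115% of tested genes for Hom and 0.00577% for Het. At an unadjusted p under 0.05 were Clic1 for Hom (0.28, unadjusted p = 0.0238, limma adjusted p = 0.223) and Clic4 (-0.35, adjusted p = 0.486) and Aqp1 (1.16, adjusted p = 0.525) for Het. These are 1 of 7 members for Hom, beside 17.2% of all tested genes, and 2 of 7 for Het, beside 9.3%. For Ttr the ratio of Hom to WT means was 0.0181 in batch 1, which holds WT 1, and 2.92 in batch 2.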

How the data were processed

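Total RNA of the 14 GNP libraries was sequenced as single-end reads of 50 bases. The authors used Bowtie 1.0.0 to place the reads on mouse Ensembl transcripts (mm10) and RSEM 1.2.15 to estimate levels, at default parameters, and deposited gene-level TPM values. TPM keeps no library depth, so no counting error or detection limit can be given; the study names only a common approximate depth. Gene symbols and positions came from GENCODE on GRCm38 (40254 of 41381 genes given a symbol). No pair of libraries held identical values.

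Values were tested as log2(TPM + 1) in the 17325 genes with at least 1 TPM in at least 4 libraries, with limma 3.58.1 in R 4.3.3 (genotype and batch as terms, all 14 libraries, intensity trend, two-sided p adjusted by Benjamini-Hochberg over all tested genes). A gene was called at an adjusted p under 0.05. Of the members, Clic5, Kl and Prlr missed the filter and were tested by exact permutation of labels within batch, two-sided and unadjusted. The limma script was tested on simulated data.

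The members and gene lists were chosen with earlier results of these data known. The named genes are the 10 members, Clic3, 5 further choroid plexus genes (Kcnj13, Otx2, Slc4a5, Tmem72 and Cldn2), list genes called in a contrast, coding genes starting within 500 kb of Clic6 and the 5 genes most correlated with Clic6. Promoter sequences were found for 6 of the 10 members; those of Clic6, Ttr, Folr1 and Enpp2 were not used here.

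Same-numbered libraries of different genotypes had correlated deviations of -0.101 to 0.253 over 13 pairs, with 5 over 0.1. These values are not independent of each other. WT 4 with Het 4 and WT 5 with Het 5 had the same value, 0.1087, and WT 4 with Het 5 had -0.1087. They therefore cannot decide whether equal numbers mark pairs. The main fit did not take numbers as pairs, and the replicate number was used as a block in an alternative. Alternatives changed the pseudocount, filter, scaling, batch handling, libraries and test.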

Additional observations from a re-analysis of the deposited data

Results flagged for a closer look

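In 5 of 30 groups (10 genes in 3 genotypes) the highest library lay apart from the others by Dixon's criterion. Chance alone meets it in about 1 in 20 groups of independent, normally distributed values. The TPM values used here are skewed and the genes share libraries, so 5 of 30 cannot be set against that rate. In WT, Ttr in WT 1 (488.22 TPM) and Folr1 in WT 1 (8.98 TPM) stood apart. In Het, Ttr in Het 5 (129.28 TPM) and Aqp1 in Het 5 (2.1 TPM) stood apart. In Hom, Prlr in Hom 2 (0.22 TPM) stood apart from 3 libraries at 0.17 TPM, a difference at the edge of what 2 decimals of TPM resolve. No value of Clic6 was set apart in this way in any genotype.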

How the results depend on the processing

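No alternative run turned the sign of Clic1 in Hom. The sign of Clic6 did not turn either, in Hom or in Het. For Clic6 this is a description and no test, since it was chosen for its difference in these same libraries. The main analysis called 465 genes in Hom against WT and 1 in Het. For Hom, batch 1 alone called 169, batch 2 alone 33, a fit of the 2 genotypes 259 and omission of WT 1, Het 5 and Hom 4 184 genes. Leaving out single libraries gave 287 to 489. A Kruskal-Wallis test over the 3 genotypes had 805 genes at an unadjusted p under 0.01. It used values with the fitted batch difference removed and arrangements of all libraries without regard to batch, so its p is approximate. A change in any genotype counts in it. For Het, a pseudocount of 0.1 called 3, batch 1 alone 2, no batch term 2, the endothelial covariate 11, and the filter of TPM above 0, a mean TPM of at least 5, quantile normalization, a fit of the 2 genotypes and omission of WT 1 and Het 5, with or without Hom 4, 0 genes; leaving out single libraries gave 0 to 13. The Kruskal-Wallis test has no contrast of Hom or of Het with WT. With the replicate number as a block, Hom called 259 and Het 0 genes, Clic4 was 0.0133, Enpp2 -0.117, Cldn2 0.0683 in Hom, and Rbp4 (adjusted p = 0.0738) and Neurod1 (adjusted p = 0.123) lost their call, with no other call changed by the block. Clic6 was 2.39 in Hom and 1.07 in Het with a pseudocount of 0.1, and 1.87 to 2.06 in Hom without single libraries; Clic1 in Hom was -0.233 in batch 2 alone.

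In contrasts where they had no call, members and the choroid plexus genes Cldn2 and Otx2 changed sign as follows, with a p of at least 0.632 in each case. In Hom, batch 1 alone gave Clic4 0.064 and Enpp2 -0.32, batch 2 alone Ttr 1.56 and Folr1 0.0582, quantile normalization Clic4 0.00524, median-ratio scaling Enpp2 -0.00388, and the endothelial covariate Folr1 0.0364, Enpp2 -0.291 and Cldn2 0.0439. Omission of WT 1 and Het 5 gave Ttr 0.366, Folr1 0.205, Aqp1 0.0368 and Cldn2 0.0884, and with Hom 4 omitted too Folr1 0.138. In Het, batch 2 alone gave Clic1 0.0685, Clic4 -0.171, Ttr 2.01, Folr1 0.608, Enpp2 0.533 and Kl 0.0875, batch 1 alone Otx2 0.0282, the covariate Clic1 0.0168 and Folr1 0.0854, omission of WT 1 and Het 5 Folr1 0.135 and Enpp2 0.0503, and with Hom 4 omitted too Folr1 0.123 and Enpp2 0.027. Without single libraries the Hom range was -0.0513 to 0.041 for Clic4, -1.85 to 0.366 for Ttr, -0.455 to 0.205 for Folr1, -0.302 to 0.0368 for Aqp1, -0.188 to 0.299 for Enpp2 and -0.17 to 0.0884 for Cldn2. The Het range was -0.0144 to 0.0772 for Clic4, -2.21 to 0.307 for Ttr, -0.347 to 0.355 for Folr1, -0.214 to 0.14 for Enpp2, -0.113 to 0.103 for Otx2 and -0.163 to 0.00407 for Kl. With unchanged sign, the Hom call was lost in 7 of 28 alternatives for Otx2, 2 of 28 for Stra6, 15 of 28 for Rbp4, 20 of 27 for Kcne1 and 4 of 28 for Neurod1, and the exact p of Clic5 rose above 0.05 in 12 of 15, where fewer libraries allow fewer arrangements. The causes were not tested. Depth is unknown, so levels under 1 TPM have no interval.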
